A study of Mus musculus with 6 samples.

Results

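The interferon-stimulated and guanylate-binding genes of mouse tail skin were taken from the count table by name, as the genes whose symbol begins or reads as one of the Ifi, Ifit, Ifitm, Oas, Mx, Isg, Gbp and Irgm names, the interferon regulatory factors, Stat genes that act in interferon signalling, the remaining immunity-related GTPases, and Usp18, Rsad2, Bst2, Zbp1, Rtp4, Xaf1, Dhx58, Ddx58, Cmpk2, Herc6 and Eif2ak2. The rule found 82 of 18180 genes. No value entered the rule. Of the 82, 76 had enough reads for the test. The other 6 (Oas1d, Ifit1bl2, Gbp10, Gbp2b, Ifi27l2b and Ifi44l) had at most 31 counts over a group.

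RNA was sequenced from the tail skin of 2 groups of mice, 3 libraries each. The control mice were Mettl3fl/fl and lacked the Cre transgene (Mettl3fl/fl;K14creERT2-/-). The libraries labelled cKO came from Mettl3fl/fl mice with 1 copy of K14creERT2 (Mettl3fl/fl;K14creERT2+/-), a tamoxifen-dependent Cre driven by the keratin 14 promoter, which is active in basal keratinocytes and not in the immune cells or fibroblasts of the skin. Both groups carry the floxed Mettl3 allele, which encodes the catalytic subunit of the m6A RNA methyltransferase. Mice were given tamoxifen on 5 consecutive days, and 4 weeks later skin was taken from tail areas that had become inflamed by themselves in Cre carriers, and from unaffected tails of control mice. Genotype and inflammation therefore go together and cannot be told apart, and the labels give no strain, sex or age.

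Interferons are secreted proteins that cells release on sensing foreign or misplaced nucleic acid or, for interferon gamma, that T and NK cells release on activation. Type I and type III interferons activate a complex that contains STAT2 and IRF9 and binds the interferon-stimulated response element (ISRE), whereas interferon gamma activates STAT dimers that bind the gamma-activated site (GAS). The genes switched on include RNA sensors, the OAS, IFIT, Mx and IFITM antiviral proteins, and 2 families of large GTPases, the guanylate-binding proteins (GBP) and the immunity-related GTPases (IRG), that attack the vacuoles of intracellular pathogens. In skin, keratinocytes, fibroblasts, endothelial cells and leukocytes can all respond.

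The promoters of 63 of the 82 genes were matched by gene number to RefSeq windows running from 250 bases before to 50 bases after an annotated start (build GRCm38.p6, 75 windows). Both strands were searched for the ISRE core, GAAANNGAAA, and for the GAS, TTCNNNGAA, which reads the same on both strands. The ISRE core lay in 49.3% of the 75 windows, against 3.15% of the 17855 windows of all genes in the count table. The GAS lay in 24.0% against 7.14%. The stretches below belong to the 5 genes with the largest rise among those with an ISRE core wholly before the start, and are shown because they carry the motif that the complex of STAT2 and IRF9 binds. They are printed 5′ to 3′ on the gene's strand, with ISRE cores in capitals. Their positions in GRCm38.p6 are chr1:173599296-173599385 (- strand) for Ifi213, chr1:173673567-173673656 (+ strand) for Ifi208, chr19:34640764-34640853 (+ strand) for Ifit1, chr4:156200835-156200924 (- strand) for Isg15 and chr5:120907526-120907579 (- strand) for Oas1a.

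Ifi213: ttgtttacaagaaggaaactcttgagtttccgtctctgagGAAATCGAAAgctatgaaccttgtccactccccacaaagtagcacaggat
Ifi208: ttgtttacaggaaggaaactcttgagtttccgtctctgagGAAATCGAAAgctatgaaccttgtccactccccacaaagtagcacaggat
Ifit1: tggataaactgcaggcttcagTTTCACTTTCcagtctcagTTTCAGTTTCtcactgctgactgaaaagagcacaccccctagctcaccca
Isg15: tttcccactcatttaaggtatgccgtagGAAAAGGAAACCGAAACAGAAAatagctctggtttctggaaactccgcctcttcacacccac
Oas1a: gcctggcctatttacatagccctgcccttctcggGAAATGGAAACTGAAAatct

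The stretches of Ifi213 and Ifi208 were identical at 89 of 90 bases. Ifit1 held separate cores read on the opposite strand, and in Isg15 and Oas1a overlapping cores formed 1 longer run of GAAA repeats. A second arrangement was noticed in the IRG genes after the matches had been seen. In Igtp, Irgm2, Tgtp1 and Tgtp2 a GAS was followed after 2 bases by an ISRE core, so that the first bases of the motifs were 11 bases apart in all 4. Of all 32851 windows, 5 held this pair in either order, these 4 and that of Gm12185, also on chromosome 11. The 4 stretches below lie at chr11:58199496-58199546 (+ strand) for Igtp, chr11:58214887-58214937 (+ strand) for Irgm2, chr11:48992299-48992349 (- strand) for Tgtp1 and chr11:49064258-49064308 (- strand) for Tgtp2 in GRCm38.p6, with both motifs in capitals.

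Igtp: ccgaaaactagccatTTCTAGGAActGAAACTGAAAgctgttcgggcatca
Irgm2: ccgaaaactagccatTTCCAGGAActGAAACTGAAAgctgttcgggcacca
Tgtp1: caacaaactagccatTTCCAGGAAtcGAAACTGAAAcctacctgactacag
Tgtp2: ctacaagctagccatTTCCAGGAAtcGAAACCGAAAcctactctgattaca

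Tgtp1 and Tgtp2 are near-copies of each other, and Igtp and Irgm2 are related genes, so the 4 promoters are not independent. The plot of match positions shows the ISRE core nearest the start of each gene at a median of -55.5 bases, with 27 of the 36 genes that had one holding it within 150 bases before the start. A match is a stretch of letters and was not tested for binding.

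**Figure D1:**
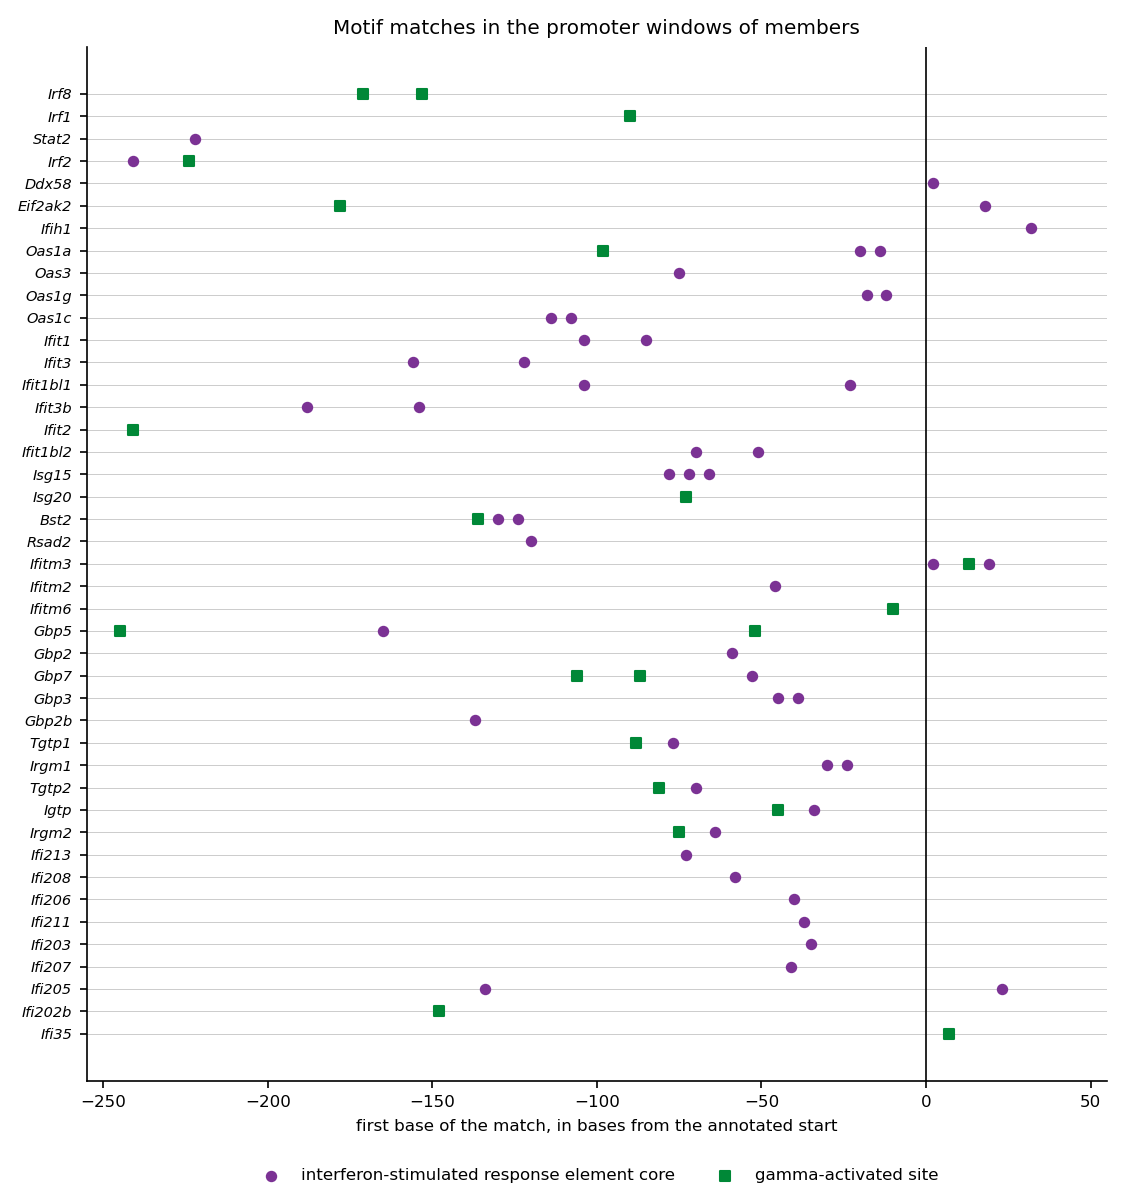
Position of each match in the promoter windows of members with at least 1 match; the horizontal axis is the first base of the match in bases from the annotated start (RefSeq, GRCm38.p6), circles are ISRE cores and squares are GAS. Most ISRE cores lie close before the start, and in Igtp, Irgm2, Tgtp1 and Tgtp2 the square lies 11 bases to the left of the circle.

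Total counts were 35855880 to 37043849 per library. Keratin and collagen transcripts that mark skin were abundant in all 6 libraries. The targeted gene went against the label: Mettl3 had 440, 389 and 337 counts in the control libraries against 569, 512 and 540 under the cKO label (log2 fold change 0.48, SE 0.11, adjusted p = 0.000102), counted over the whole gene. Every direction below is therefore drawn for the libraries labelled cKO. Whether each library was a separate animal is not labelled, and p-values here reflect only library-to-library spread, possibly technical. Calls were made at an adjusted p under 0.05 over all 15061 genes tested, by edgeR's quasi-likelihood test. By that rule 61.4% of all tested genes were called, 30.8% higher and 30.6% lower, so a call alone says little about any 1 gene.

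Most members were higher in the libraries labelled cKO. Of 76 tested, 61 rose and 3 fell, while 12 did not pass the test. The median log2 fold change was 0.76, against 0.00 over all genes tested. At least 2-fold rises were called in 26 members, where 5.98% of all tested genes reached that size upward. No member fell 2-fold, against 4.79% of all tested genes. The groups did not overlap upward in 60 members, against 32.6% of all genes, and did not overlap downward in 3, against 32.3%. Summed over the 82 genes, the members held 1065 to 1068 CPM (counts per 1e+06, on TMM-scaled library totals) in the control libraries and 1297 to 1316 CPM in the libraries labelled cKO. In tissue RNA, more cells of a type and more RNA per cell cannot be told apart.

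**Figure D2:**
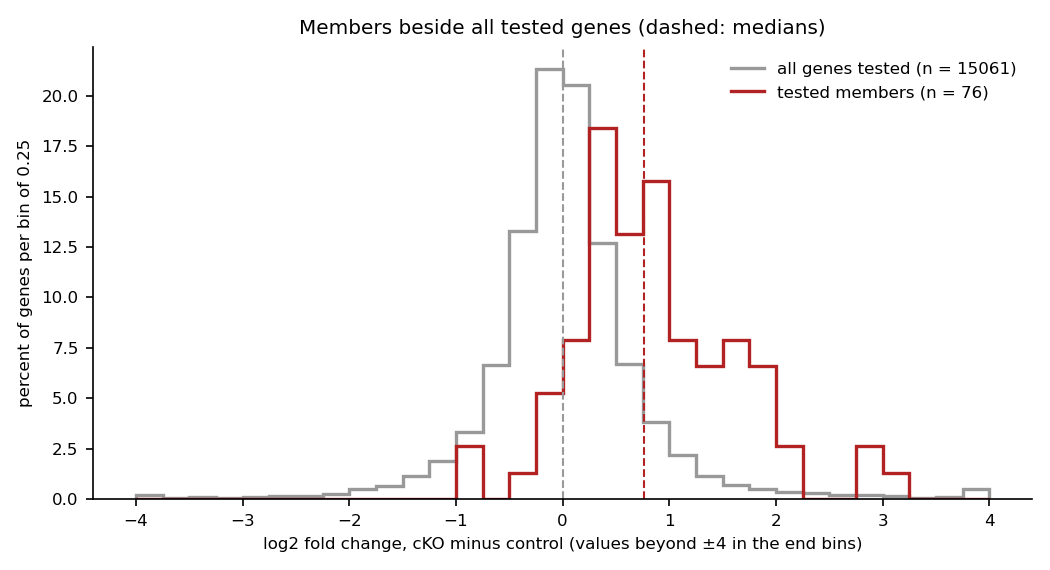
Distribution of log2 fold changes (libraries labelled cKO minus control) in bins of 0.25, as percent of the 76 tested members and of all 15061 genes tested; dashed lines mark the medians, 0.76 and 0.00. The members' distribution lies to the right of that of all genes, with a small group of 3 genes that fell on the left.

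The 76 tested members include 10 that reached the low-count limit in all 3 libraries labelled cKO but not in every control library (Oasl1, Oas1g, Ifit1bl1, Ifitm6, Gbp8, Tgtp1, Ifi213, Ifi208, Ifi206 and Ifi44), and none for which the reverse held. The filter therefore favours rises among the weakly expressed members. All of the 10 but Ifit1bl1 and Ifitm6 were among the 26 members called at least 2-fold higher. With a filter of 1 CPM in 3 libraries, 22 members were called at least 2-fold higher. None of the 12 members with a mean of 10 FPKM (fragments per kilobase of gene length) or more over all libraries rose 2-fold. The most abundant per length were Ifitm2 (154 ± 5.18 FPKM in control and 191 ± 9.48 FPKM in the libraries labelled cKO) and Ifitm3 (136 ± 3.74 FPKM in control and 188 ± 6.46 FPKM in the libraries labelled cKO), which do not differ from each other beyond their spread in the libraries labelled cKO. In control they were followed by Oas1f, and in the libraries labelled cKO by Ifi30, a lysosomal thiol reductase that prepares antigens.

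Among the transcription factors, Stat2 and Irf9, subunits of the ISRE-binding complex, rose by modest factors. Stat2 had 591, 533 and 587 counts in the control libraries against 681, 756 and 747 under the cKO label (log2 fold change 0.36, SE 0.090, adjusted p = 0.000411). Irf9, which gives the complex its DNA contact, rose 1.36-fold (from 18.3 ± 0.295 to 24.9 ± 0.936 CPM). In both genes, every library labelled cKO lay above every control library. Of the 11 factors 7 rose, none fell and none reached 2-fold. Shares over all tested genes were 30.8% higher, 30.6% lower, 5.98% at least 2-fold higher and 32.6% without overlap upward.

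Irf8, a factor of myeloid and dendritic cell development, had the largest rise of the group, with 214, 167 and 240 counts in the control libraries against 342, 336 and 431 under the cKO label (log2 fold change 0.84, SE 0.14, adjusted p = 4.11e-07). Irf1, an early target of interferon gamma, followed with 384, 344 and 354 counts in the control libraries against 491, 569 and 761 under the cKO label (log2 fold change 0.76, SE 0.11, adjusted p = 3.90e-08). Its replicate 3 of the libraries labelled cKO was the highest of the 6 and the other 2 also lay above control. Irf7, which amplifies type I interferon production, rose 1.3-fold (from 9.99 ± 0.679 to 13 ± 1.24 CPM), and Irf5 rose 1.15-fold with groups that overlapped. Irf3, Irf2 and Irf4 had log2 fold changes of 0.12 (adjusted p = 0.0688), 0.23 (adjusted p = 0.0913) and -0.05 (adjusted p = 0.805).

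All 5 sensors of foreign nucleic acid rose. Zbp1, a sensor of Z-form nucleic acid that can start necroptosis, had 29, 31 and 30 counts in the control libraries against 143, 81 and 115 under the cKO label (log2 fold change 1.91, SE 0.31, adjusted p = 1.36e-07). The libraries labelled cKO differed among themselves from 81 to 143 counts and all lay above control. The RNA helicase genes Dhx58 (LGP2) and Ddx58 (RIG-I) had 112, 81 and 75 counts in the control libraries against 140, 163 and 150 under the cKO label (a 1.7-fold rise) and 384, 426 and 353 counts in the control libraries against 561, 580 and 547 under the cKO label (a 1.46-fold rise), and Ifih1 (MDA5) rose 1.26-fold. Eif2ak2 (PKR), a kinase that halts translation on binding double-stranded RNA, was the most abundant of them per length and had 664, 771 and 759 counts in the control libraries against 970, 1081 and 960 under the cKO label, a rise of 1.38-fold. Groups did not overlap in any of the 5, where 30.8% of all tested genes were called higher and 32.6% did not overlap upward. All 3 sensors with a promoter window, Ddx58, Eif2ak2 and Ifih1, held their ISRE core after the annotated start.

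The OAS family split in 2 directions. Of 9 tested genes 6 were called higher and 2 lower, where 30.8% and 30.6% of all tested genes were. Active OAS enzymes make short 2′-5′ linked oligoadenylates that activate the RNA-degrading enzyme RNase L. The mouse has a cluster of Oas1 copies besides Oas2, Oas3 and the OAS-like genes. Enzyme activity of the single copies was not measured here. Oasl2 had 44, 67 and 67 counts in the control libraries against 283, 220 and 259 under the cKO label (log2 fold change 2.10, SE 0.20, adjusted p = 7.54e-15). Oas1a had 51, 31 and 45 counts in the control libraries against 153, 139 and 144 under the cKO label (log2 fold change 1.78, SE 0.26, adjusted p = 7.56e-09), and Oas3 had 16, 29 and 14 counts in the control libraries against 45, 57 and 100 under the cKO label (log2 fold change 1.77, SE 0.41, adjusted p = 0.000139). Oas2, Oasl1 and Oas1g rose 3.35-fold, 3.2-fold and 2.82-fold. These 6 genes were weakly expressed, with group means of at most 2.26 FPKM, and none of them overlapped between groups. Upward, 32.6% of all tested genes did not overlap. Oasl1 and Oas1g reached the low-count limit in all libraries labelled cKO but not in every control library.

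Oas1f and Oas1c fell, where 30.6% of all tested genes were called lower and 32.3% did not overlap downward. Oas1f had 4748, 4364 and 4309 counts in the control libraries against 2152, 2257 and 2375 under the cKO label (log2 fold change -0.98, SE 0.041, adjusted p = 5.87e-34), a fall of 1.97-fold (from 123 ± 6.08 to 62.3 ± 2.83 CPM). All 3 libraries labelled cKO lay far below control. Oas1c had 258, 255 and 229 counts in the control libraries against 122, 136 and 177 under the cKO label (log2 fold change -0.77, SE 0.17, adjusted p = 6.83e-05), again without overlap. Per length, Oas1f stood at 82.3 ± 4 FPKM in control and 42.4 ± 1.94 FPKM in the libraries labelled cKO, whereas Oas1a stood at 0.591 ± 0.136 FPKM in control and 2.07 ± 0.107 FPKM in the libraries labelled cKO. The longest Oas1f transcript shared 2.94% of its 50-base stretches with transcripts of other genes, whereas Oas1a and Oas1g shared 57.6% and 54.7%, mostly with each other, so the single values of Oas1a and Oas1g are uncertain. The Oas1f promoter window held neither motif, and that of Oas1c held an ISRE core. Oas1e had 27, 46 and 26 counts in the control libraries against 37, 24 and 31 under the cKO label (log2 fold change -0.10, SE 0.45, adjusted p = 0.856), and Oas1d had 1 count in all.

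**Figure D3:**
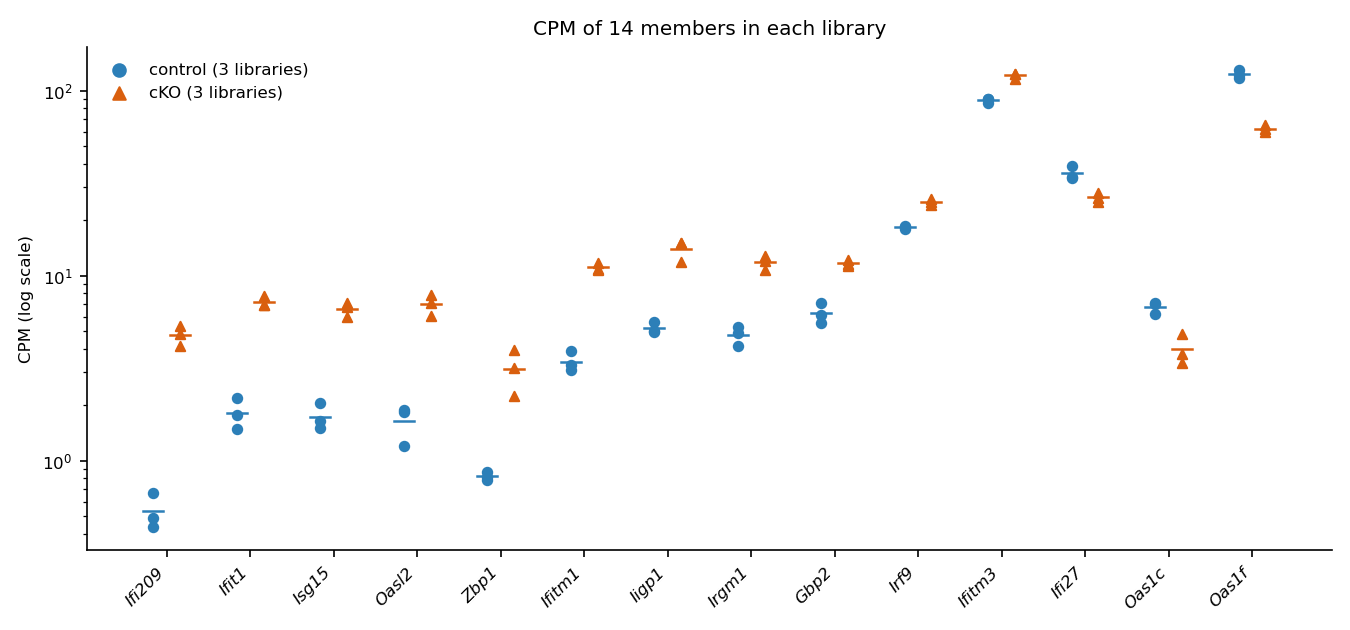
CPM on a log axis for 14 members in each of the 6 libraries (circles control, triangles labelled cKO, horizontal bars group means, n = 3 per group). In the first 11 genes all triangles lie above all circles, and in Ifi27, Oas1c and Oas1f all lie below. Only members whose groups did not overlap are drawn. Of the 76 tested members, 60 lay fully above and 3 fully below, against 32.6% and 32.3% of all tested genes.

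IFIT proteins bind viral RNA ends and block their translation. Ifit1 had 80, 53 and 65 counts in the control libraries against 249, 251 and 281 under the cKO label (log2 fold change 1.98, SE 0.19, adjusted p = 1.34e-14). Ifit3 had 189, 153 and 160 counts in the control libraries against 379, 404 and 359 under the cKO label (log2 fold change 1.19, SE 0.14, adjusted p = 2.58e-11), and its copy Ifit3b rose 1.83-fold (from 1.13 ± 0.0574 to 2.06 ± 0.188 CPM). Ifit3 shared 51.2% of its 50-base stretches with other transcripts, all with Ifit3b, so the 2 values are uncertain. Ifit2 had 269, 247 and 261 counts in the control libraries against 392, 361 and 329 under the cKO label, a rise of 1.4-fold. The low-count relative Ifit1bl1 had 4, 12 and 13 counts in the control libraries against 19, 13 and 26 under the cKO label and did not pass the test (adjusted p = 0.16), and Ifit1bl2 had 15 and 31 counts over the groups and was not tested. No gene matching Mx1 or Mx2 was analysed here.

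In the ISG15 system, a ubiquitin-like protein is attached to newly made proteins and removed by a protease. Isg15, the modifier itself, had 55, 73 and 60 counts in the control libraries against 244, 258 and 217 under the cKO label (log2 fold change 1.94, SE 0.20, adjusted p = 1.27e-13). Usp18, the protease, which also restrains the type I receptor, had 53, 44 and 68 counts in the control libraries against 105, 121 and 103 under the cKO label (a 2-fold difference, adjusted p = 0.000898). In both genes all libraries labelled cKO lay above control, as in 32.6% of all tested genes. Herc6, the ligase of the mouse, had 71, 95 and 94 counts in the control libraries against 137, 87 and 114 under the cKO label, with overlap, and did not pass the test (log2 fold change 0.38, SE 0.24, adjusted p = 0.162). The exonuclease gene Isg20 had 85, 78 and 71 counts in the control libraries against 109, 115 and 132 under the cKO label, a rise of 1.53-fold. The related Isg20l2, a ribosome biogenesis exonuclease and the most abundant of this group per length, had 1231, 1200 and 1263 counts in the control libraries against 1313, 1414 and 1374 under the cKO label, a rise of 1.11-fold.

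Other antiviral effectors rose by less than 2-fold. Rtp4 had 191, 194 and 131 counts in the control libraries against 334, 297 and 336 under the cKO label (log2 fold change 0.91, SE 0.15, adjusted p = 4.15e-07). Bst2 (tetherin), which holds budding virus at the cell surface, had 294, 308 and 385 counts in the control libraries against 649, 557 and 561 under the cKO label (log2 fold change 0.85, SE 0.11, adjusted p = 6.09e-10). The neighbouring genes Rsad2 (viperin) and Cmpk2, which act together in making a chain-terminating nucleotide, had 87, 71 and 79 counts in the control libraries against 102, 126 and 117 under the cKO label for Rsad2 (log2 fold change 0.55, SE 0.24, adjusted p = 0.0414) and 82, 96 and 98 counts in the control libraries against 139, 118 and 134 under the cKO label for Cmpk2 (log2 fold change 0.51, SE 0.22, adjusted p = 0.041). Groups did not overlap in these 4 genes, as upward in 32.6% of all tested genes, but the calls of Rsad2 and Cmpk2 are marginal. Rsad2 had an adjusted p of 0.05 or more without control replicate 2 or 3 or replicate 2 or 3 labelled cKO. Cmpk2 did so without control replicate 1 or 2 or replicate 1 or 3 labelled cKO. Xaf1 did not pass (log2 fold change 0.36, SE 0.18, adjusted p = 0.0836).

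IFITM proteins sit in membranes and hinder viral fusion. Ifitm1 had 144, 110 and 120 counts in the control libraries against 388, 424 and 397 under the cKO label (log2 fold change 1.70, SE 0.15, adjusted p = 1.44e-16), the largest rise of the family. The abundant Ifitm3 had 3159, 3219 and 3321 counts in the control libraries against 4460, 4204 and 4463 under the cKO label (log2 fold change 0.44, SE 0.037, adjusted p = 1.05e-17), and Ifitm2 had 4191, 4012 and 3921 counts in the control libraries against 4761, 5181 and 4754 under the cKO label (log2 fold change 0.28, SE 0.035, adjusted p = 6.69e-11). None of the 3 overlapped between groups, where 32.6% of all tested genes did not overlap upward. A difference of 1.22-fold in Ifitm2 thus exceeded the spread between these libraries. Ifitm2 shared 48.5% of its 50-base stretches with other annotated transcripts, mainly of Gm45717, so its level is uncertain. Ifitm5, of bone, Ifitm6 and Ifitm10 overlapped between groups and had log2 fold changes of 1.10 (adjusted p = 0.0994), -0.17 (adjusted p = 0.822) and 0.12 (adjusted p = 0.402). Ifitm5 had 6, 14 and 12 counts in the control libraries against 9, 34 and 26 under the cKO label.

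All 8 tested guanylate-binding protein genes rose, with a median log2 fold change of 0.76, where 30.8% of all tested genes were called higher. Gbp2, the most abundant of them per length, had 203, 220 and 261 counts in the control libraries against 440, 419 and 410 under the cKO label (log2 fold change 0.90, SE 0.13, adjusted p = 8.93e-09). Gbp5, which promotes inflammasome assembly, had 53, 51 and 44 counts in the control libraries against 109, 107 and 154 under the cKO label (log2 fold change 1.32, SE 0.27, adjusted p = 1.25e-05), and Gbp7 rose 1.81-fold (from 6.12 ± 0.949 to 11.1 ± 0.91 CPM). Gbp8 had the largest fold of the family but few reads, 1, 11 and 6 counts in the control libraries against 22, 25 and 27 under the cKO label (log2 fold change 2.02, SE 0.64, adjusted p = 0.00499); its log2 fold change was 2.79 without control replicate 2, and it was not called without control replicate 1. Groups did not overlap in these 4 genes, where 32.6% of all tested genes did not overlap upward. Gbp8 reached the low-count limit in all libraries labelled cKO but not in every control library. Gbp3, Gbp4, Gbp6 and Gbp9 rose 1.51-fold, 1.32-fold, 1.58-fold and 1.21-fold, with overlap in Gbp6. Gbp9 had 342, 337 and 351 counts in the control libraries against 411, 397 and 435 under the cKO label. It was the family's highest by mean CPM in control. Calls were lost in Gbp4 without control replicate 2 or replicate 3 labelled cKO, in Gbp6 without control replicate 2 or 3 or replicate 1 labelled cKO, and in Gbp9 without any 1 library except replicate 2 labelled cKO. Gbp6 shared 59.7% of its 50-base stretches with other transcripts. Gbp10 and Gbp2b had 8 and 1 counts over the libraries labelled cKO, and 5 each in control. All 5 genes of the family with a promoter window held an ISRE core.

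All 7 immunity-related GTPase genes rose, with a median log2 fold change of 1.31, where 30.8% of all tested genes were called higher. The difference from the GBP genes was not tested. Iigp1 had 206, 179 and 183 counts in the control libraries against 428, 547 and 545 under the cKO label (log2 fold change 1.43, SE 0.13, adjusted p = 6.22e-16). Irgm1, a regulator that keeps the effector GTPases off the cell's own membranes, had 180, 149 and 194 counts in the control libraries against 388, 436 and 465 under the cKO label (log2 fold change 1.31, SE 0.14, adjusted p = 2.53e-13), and Ifi47 had 88, 58 and 108 counts in the control libraries against 242, 234 and 251 under the cKO label (log2 fold change 1.52, SE 0.19, adjusted p = 1.69e-10). In all 3 the groups were fully apart, as upward in 32.6% of all tested genes. The other regulators, Igtp (Irgm3) and Irgm2, rose 1.98-fold (from 2.53 ± 0.476 to 5.02 ± 0.381 CPM) and 1.94-fold (from 4.26 ± 0.559 to 8.26 ± 0.599 CPM). Tgtp1 had 11, 3 and 22 counts in the control libraries against 12, 23 and 69 under the cKO label (log2 fold change 1.53, SE 0.58, adjusted p = 0.0183). It reached the low-count limit in all libraries labelled cKO but not in every control library. It overlapped between groups and its log2 fold change was 0.56 (adjusted p = 0.534) without replicate 3 labelled cKO and 2.29 without control replicate 3; it was also not called without control replicate 1 or 2. Its near-copy Tgtp2, with 32, 18 and 28 counts in the control libraries against 54, 50 and 68 under the cKO label, rose without overlap (log2 fold change 1.14, SE 0.40, adjusted p = 0.00988), and its call was lost without control replicate 2 or replicate 3 labelled cKO. Tgtp1 and Tgtp2 shared 91.4% and 90.6% of their 50-base stretches with other transcripts, so reads cannot be assigned to either with certainty. The 4 genes with the paired GAS and ISRE core thus had log2 fold changes of 0.99, 0.95, 1.53 and 1.14. Gm12185, which held the same pair, had 1, 14 and 12 counts in the control libraries against 0, 1 and 1 under the cKO label and was not tested.

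The IFI200 family is a cluster of DNA-binding proteins of the PYHIN type that includes cytosolic DNA sensors. It held the largest rises, and all 10 tested members rose without overlap between groups. Over all tested genes, 30.8% were called higher and 32.6% did not overlap upward. Of the family, Ifi213, Ifi208 and Ifi206 reached the low-count limit in all libraries labelled cKO but not in every control library. Ifi209 had 18, 24 and 16 counts in the control libraries against 174, 152 and 195 under the cKO label (log2 fold change 3.16, SE 0.28, adjusted p = 1.92e-16), a rise of 8.96-fold. Ifi213 had 2, 3 and 20 counts in the control libraries against 79, 52 and 43 under the cKO label (log2 fold change 2.79, SE 0.54, adjusted p = 6.73e-06); 1 control library, replicate 3, held 20 of its 25 control counts, and without it the log2 fold change was 4.47. Ifi208 had 6, 2 and 1 counts in the control libraries against 18, 22 and 24 under the cKO label (log2 fold change 2.79, SE 0.74, adjusted p = 0.000832), and 3.72 without control replicate 1. Of its 50-base stretches 25.9% occurred in other transcripts, mostly of Ifi213.

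Ifi204, known from macrophages, had 300, 266 and 256 counts in the control libraries against 654, 661 and 548 under the cKO label (log2 fold change 1.19, SE 0.11, adjusted p = 4.18e-15), and Ifi211 rose 2.36-fold (from 3.1 ± 1.13 to 7.3 ± 1.09 CPM). Ifi202b, whose expression is known to differ between inbred strains, was the most abundant of the family per length, with 1577, 1518 and 1656 counts in the control libraries against 2235, 2293 and 2150 under the cKO label (log2 fold change 0.50, SE 0.052, adjusted p = 1.57e-13). Ifi203, Ifi205, Ifi206 and Ifi207 rose 1.96-fold, 1.53-fold, 2.92-fold and 1.53-fold. The call of Ifi206, at 19 and 56 counts over the groups, was lost in 5 of 6 fits without 1 library, all but that without control replicate 3. Copies within the family share sequence, 72.8% of stretches in Ifi211 and 35.1% in Ifi209. Of 9 genes of the family with a promoter window, 7 held an ISRE core.

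The remaining Ifi genes did not move as a group. Ifi44 had 9, 26 and 14 counts in the control libraries against 59, 42 and 37 under the cKO label (log2 fold change 1.49, SE 0.48, adjusted p = 0.0053), not called without replicate 1 labelled cKO. Ifi27l2a had 652, 556 and 684 counts in the control libraries against 1093, 1023 and 1038 under the cKO label (log2 fold change 0.74, SE 0.081, adjusted p = 6.76e-13), and Ifi30 had 1742, 1755 and 1838 counts in the control libraries against 2441, 2364 and 2239 under the cKO label (log2 fold change 0.41, SE 0.050, adjusted p = 6.63e-11). Ifi27, a relative of Ifi27l2a and a small membrane protein of mitochondria and the nuclear envelope, fell, with 1237, 1403 and 1251 counts in the control libraries against 952, 1011 and 914 under the cKO label (log2 fold change -0.43, SE 0.069, adjusted p = 1.22e-07). The libraries labelled cKO all lay below control in Ifi27 and all above in the other 3, against 32.3% and 32.6% of all tested genes. Ifi35 overlapped between groups (log2 fold change 0.05, SE 0.11, adjusted p = 0.722), and Ifi27l2b and Ifi44l had 5 and 0 counts in control against 1 each.

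**Figure D4:**
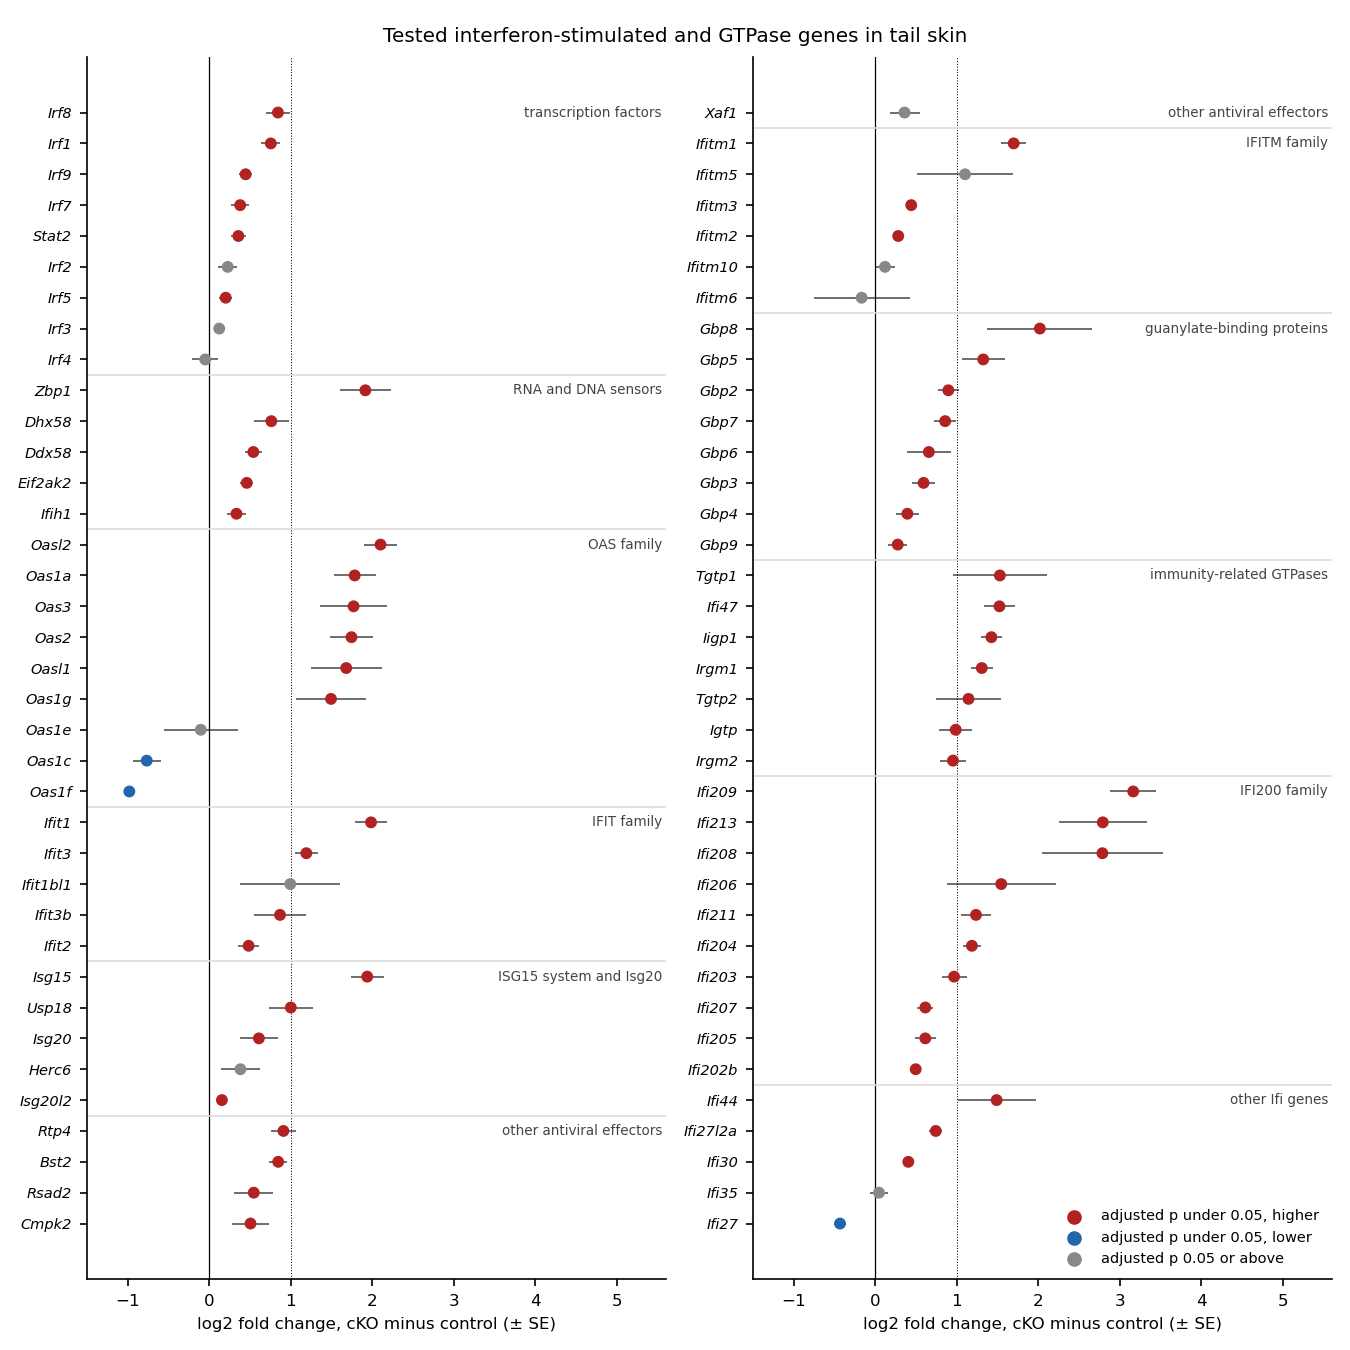
Log2 fold change (libraries labelled cKO minus control) of 74 of the 76 tested members, ordered by role, with bars of ± 1 SE; red and blue mark an adjusted p under 0.05, grey 0.05 or above, and the dotted line is 2-fold. The 3 blue points are Oas1c, Oas1f and Ifi27, and all points of the IFI200, GBP and IRG families are red and to the right of 0.

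Genes upstream of the members were followed through lists. Of 12 listed interferon ligands, 2 were in the table. Ifne had 1 count in control and none in the libraries labelled cKO, and Ifnz had 0 and 2 counts, so no difference was detectable at this depth, where 3 counts in a library correspond to 0.0817 to 0.0837 CPM. The other ligands, Ifnb1 and Ifng included, were not analysed here. Of 9 receptor and JAK kinase genes 4 rose and 2 fell, none by 2-fold. These are 44.4% and 22.2% of the list, against 30.8% and 30.6% of all tested genes. Ifngr2, the signalling chain of the interferon gamma receptor, had 1253, 1121 and 1274 counts in the control libraries against 1642, 1700 and 1751 under the cKO label (log2 fold change 0.49, SE 0.059, adjusted p = 4.01e-11), while Ifngr1 overlapped between groups (log2 fold change 0.05, SE 0.044, adjusted p = 0.309). Ifnlr1, the specific chain of the type III receptor, fell, with 478, 499 and 472 counts in the control libraries against 279, 342 and 327 under the cKO label (log2 fold change -0.61, SE 0.12, adjusted p = 5.41e-06). Jak1 fell 1.13-fold and Il10rb, the other chain of the type III receptor, rose 1.24-fold. Both chains of the type I receptor, Ifnar1 and Ifnar2, had a log2 fold change of 0.19 and overlapped between groups (adjusted p = 0.0048 and 0.0492). The call of Ifnar1 was lost without control replicate 3, and that of Ifnar2 without control replicate 1 or 2 or replicate 1 or 3 labelled cKO.

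In the list of nucleic acid sensing genes outside the members, 17 of 22 rose and none fell. Over all tested genes, 30.8% were called higher and 30.6% lower. Mlkl, the executioner of necroptosis, had 130, 65 and 122 counts in the control libraries against 289, 286 and 226 under the cKO label (log2 fold change 1.34, SE 0.19, adjusted p = 2.71e-09), and its activating kinase Ripk3, chosen after its values were seen, had 185, 154 and 190 counts in the control libraries against 388, 422 and 393 under the cKO label (log2 fold change 1.19, SE 0.14, adjusted p = 9.65e-12). Both can act after Zbp1. Trex1, a DNA exonuclease that limits cytosolic DNA, had 506, 489 and 535 counts in the control libraries against 1289, 1153 and 1114 under the cKO label (log2 fold change 1.22, SE 0.081, adjusted p = 1.74e-22). The DNA sensor gene Tlr9 had 26, 36 and 25 counts in the control libraries against 77, 78 and 52 under the cKO label (log2 fold change 1.25, SE 0.36, adjusted p = 0.00214). The DNA-sensing pair Cgas and Sting1 and the double-stranded RNA editor Adar, also chosen after their values were seen, rose 1.93-fold, 2.27-fold and 1.31-fold. Mavs, the adaptor of RIG-I and MDA5, rose 1.18-fold with overlapping groups (log2 fold change 0.23, SE 0.081, adjusted p = 0.00975), and its call was lost without control replicate 2 or replicate 1 labelled cKO.

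Of 9 negative regulators 6 rose and 1 fell, where 30.8% of all tested genes were called higher and 30.6% lower. Socs1, a feedback inhibitor of JAK kinases, had 122, 102 and 144 counts in the control libraries against 261, 307 and 321 under the cKO label (log2 fold change 1.28, SE 0.17, adjusted p = 3.79e-10), and Socs3 had 562, 595 and 693 counts in the control libraries against 1401, 1366 and 1223 under the cKO label (log2 fold change 1.11, SE 0.078, adjusted p = 1.85e-21). Groups did not overlap in either. Pias4 rose 1.41-fold, and Pias3, a STAT3 inhibitor, fell 1.35-fold (from 37 ± 0.559 to 27.4 ± 1.75 CPM). Of 56 tested interferon-stimulated genes outside the members 32 rose and 5 fell, with a median log2 fold change of 0.58. Ms4a4c and the Schlafen gene Slfn1 had 19, 25 and 19 counts in the control libraries against 141, 135 and 151 under the cKO label for Ms4a4c and 14, 2 and 26 counts in the control libraries against 80, 64 and 64 under the cKO label for Slfn1, with log2 fold changes of 2.76 (adjusted p = 5.37e-13) and 2.31 (adjusted p = 8.82e-06); that of Slfn1 was 3.10 without control replicate 3. The T cell chemokine gene Cxcl9 had 20, 2 and 6 counts in the control libraries against 88, 79 and 92 under the cKO label (log2 fold change 3.20, SE 0.45, adjusted p = 2.97e-09); 1 control library, replicate 1, held 20 of the 28 control counts, and without it the log2 fold change was 4.39. The largest falls were those of Trafd1, a negative regulator of innate signalling, with 3367, 3233 and 3524 counts in the control libraries against 1912, 2111 and 1973 under the cKO label (log2 fold change -0.75, SE 0.045, adjusted p = 5.77e-25), and of the aminopeptidase gene Lap3 (from 315 ± 4.9 to 214 ± 4.07 CPM). The 417 tested genes outside the members with an ISRE core in a promoter window had 34.1% called higher, against 30.4% of 11436 such genes without one.

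**Figure D5:**
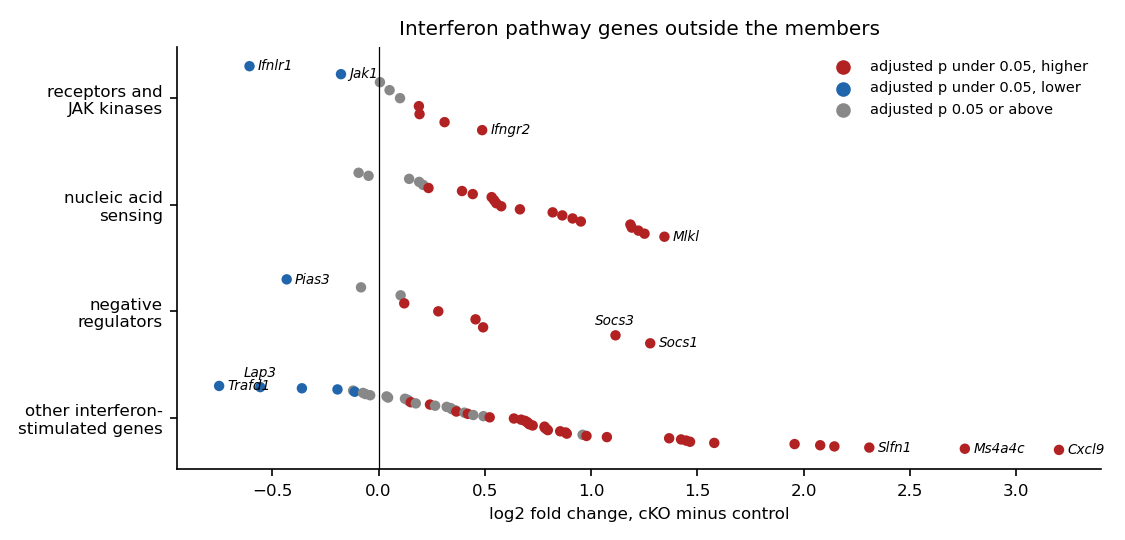
Log2 fold change (libraries labelled cKO minus control) of tested pathway genes outside the members, 1 point per gene in 4 lists; red and blue mark an adjusted p under 0.05, grey 0.05 or above. Ifnlr1, Jak1, Pias3, Trafd1 and Lap3 are labelled on the lower side, and Ifngr2, Mlkl, Socs1, Socs3, Slfn1, Ms4a4c and Cxcl9 on the higher.

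Markers of several cell types moved with the members. T and NK cell markers summed to 6.27 to 7.28 CPM in control and 17.8 to 19.8 CPM in the libraries labelled cKO, where 7 of 12 rose and none fell, and Ncr1 and Klrb1c were at 0 counts in control. Monocyte and macrophage markers went from 689 to 705 CPM to 1015 to 1042 CPM (9 of 11 higher). Lyz2 was the largest part of that sum (from 387 ± 13.9 to 577 ± 5.66 CPM). Dendritic and Langerhans cell markers went from 201 to 207 CPM to 282 to 286 CPM (4 of 8 higher), mostly through Cd74 (from 192 ± 2.59 to 264 ± 1.12 CPM). Cd207, Zbtb46, Xcr1 and Clec9a did not pass the test. Of all tested genes, 30.8% were called higher.

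All 7 tested markers of 12 listed for neutrophils rose, and the list went from 101 to 106 CPM to 3480 to 3541 CPM, nearly all in S100a8 and S100a9, which keratinocytes also make. Among the others, the receptor genes Trem1 and Csf3r had 5, 4 and 0 counts in the control libraries against 207, 149 and 159 under the cKO label and 56, 80 and 54 counts in the control libraries against 413, 397 and 451 under the cKO label, respectively, and neither overlapped between groups. Ly6g, Camp and Ngp were not tested. They had 6, 24 and 12 counts over the control libraries against 15, 34 and 20 under the cKO label. The granule genes Elane and Mpo, also not tested, had at most 5 counts over either group. Beside these markers, 30.8% of all tested genes were called higher and 32.6% did not overlap upward.

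Of 9 plasmacytoid dendritic cell markers, Bst2 included, 3 rose, 1 fell and 5 did not pass the test. Beside this and the lists below, 30.8% of all tested genes were called higher and 30.6% lower. Spib had 6, 1 and 12 counts in the control libraries against 37, 10 and 36 under the cKO label, with overlap in CPM. It rose 4.33-fold (adjusted p = 0.00321), and its log2 fold change went from 2.12 to 2.94 when control replicate 3 was left out. Runx2 rose 1.51-fold and Klk1 fell 6.6-fold, while Siglech, the most specific of them, had 55, 17 and 53 counts in the control libraries against 54, 22 and 41 under the cKO label (adjusted p = 0.873). Endothelial markers went from 193 to 199 CPM to 250 to 261 CPM (5 of 6 higher, none lower). Dermal fibroblast markers went from 11084 to 11187 CPM to 16136 to 16179 CPM (5 of 6 higher, with Dcn lower). Of 8 keratinocyte markers 5 rose and 2 fell. Their sum went from 29428 to 29657 CPM to 58089 to 58773 CPM, mostly through Krt1 (from 2170 ± 15.9 to 20487 ± 142 CPM), while Krt15 fell 2.07-fold. The part of these cell types in the members' differences was not tested.

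The size of the call depends on the spread assumed. With a biological coefficient of variation (BCV) of 20% in place of the one estimated from these libraries, 40 members were called higher and 2 lower, and 12.2% of all genes were called higher. With 40%, 14 were called higher and none lower by edgeR's likelihood ratio test, where 3.04% of all genes were called higher. Stat2 and Irf9 were among those not called at 20%.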

How the data were processed

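Per the labels' protocols, tail skin RNA was isolated with TRIzol and libraries were built with a VAHTS Universal V5 kit. The authors deposited whole-number counts per gene, not normalized, and FPKM of the same genes, which equal the counts over 1 length per gene and over the total of the library. The submitters' processing notes name fastp, HISAT2, HTSeq and mm39, without versions. How strand and multiply aligned reads were handled, and with which annotation, is not given in the sources used here, so reads of antisense partners and of close copies may be shared. Copies were gauged by the share of each member's longest GENCODE vM21 transcript (GRCm38) whose stretches of 50 bases occur in transcripts of other genes. It exceeded 10% in 25 of 82 members.

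The count test was edgeR 4.0.16 under R 4.3.3 (filterByExpr with a minimum count of 10, TMM scaling, robust quasi-likelihood fit, group as the only term, two-sided, Benjamini-Hochberg over 15061 genes). A standard error is the log2 fold change over the square root of F. Values after ± are SDs over n = 3 libraries. Printed CPM use TMM-scaled totals. Exact permutation of 3 against 3 libraries cannot go below 0.1, so none was used. Counting limits (3 counts) cover counting error only. Any 2 libraries of a group differed beyond sampling noise (chi-square per degree of freedom 3.94 to 4.12). Promoter windows are RefSeq's, on another build than the counts, matched by gene number. Alternatives used DESeq2 1.42.0, limma 3.58.1 (voom, and trend on log2 of FPKM plus 1 or 0.1), other scalings and filters, assumed BCVs, a replicate block, an adjusted p of 0.01 and each library left out. The steps were tested on simulated data. Members, roles and lists were chosen with earlier results of these data known. Values in every library were given, for each role, for up to 3 members with the largest fold change, the one with the highest mean CPM, every fall and the STAT genes, and from the pathway lists for ligands, receptors and the largest changes. No column of values was left unmapped. The single values of 2 members that this rule covers are not reported here.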

Additional observations from a re-analysis of the deposited data

How the results depend on the processing

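Of the 64 called members, 60 were fitted in all 19 alternative settings and 4 (Gbp8, Tgtp1, Ifi208 and Ifi206) in 18, as they fell under the filter of 1 CPM in 3 libraries. No called member changed direction in a setting in which it was fitted. Of the 60, 49 kept their call in the 17 settings other than the assumed BCVs. With the filter of 1 CPM, 57 members were higher, 3 lower and 22 at least 2-fold higher. Under that filter 32.8% of all genes were called higher. Members at least 2-fold higher numbered 8 by limma on log2(FPKM + 1), whose added 1 shrinks low genes. With an assumed BCV of 20%, 40 members were higher, and of the pathway genes 39 were higher and 1 lower, where the reported counts are 59 and 8. With 40%, 14 members were higher, all 14 at least 2-fold, 0 were lower, and 7 pathway genes were higher and 0 lower. By DESeq2 3 members were lower. At an adjusted p under 0.01, 50 members were higher, where 26.5% of all genes were. Without 1 library, 52 to 58 members were higher, 3 lower and 24 to 27 at least 2-fold higher. In those fits 28.5% to 29.3% of all genes were called higher. Besides the genes named with the results, calls were lost in Irf5 (without control replicate 1 or 3 or replicate 1 or 3 labelled cKO), Isg20 (without control replicate 3 or replicate 3 labelled cKO), Isg20l2 (without control replicate 1 or 2 or replicate 2 labelled cKO) and Ifit3b (without replicate 1 labelled cKO). Ifi206 was not called by DESeq2 or without a filter, Rsad2 by voom, and Gbp6 and Tgtp1 on FPKM. Calls were gained in Irf3 (with upper-quartile scaling, with library totals only, on FPKM and without replicate 3 labelled cKO), Xaf1 (without replicate 3 labelled cKO), Irf2 (without replicate 1 labelled cKO) and Ifitm5 (without replicate 1 labelled cKO and with a BCV of 20%).

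With the replicate number as a block, 58 members were higher, 3 lower and 25 at least 2-fold higher. That fit called 30.7% of all genes higher. Of the pathway genes 60 were higher and 8 lower. Rsad2, Cmpk2 and Ifi206 lost their call. Libraries of the same number shared no deviation over 13354 genes (correlations of deviations -0.0051, -0.0060 and -0.0028). This cannot show whether the samples were paired, as a pairing need not leave a shared deviation.

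The sign turned in 5 members and in Siglech, none of which had passed the test. Ifitm6 had log2 fold changes of 0.27 by voom and 0.19 on log2(FPKM + 0.1). With 1 library left out, the log2 fold change ran from -0.67 to 0.34 in Ifitm6, from -0.26 to 0.23 in Oas1e, from -0.14 to 0.065 in Irf4, from -0.012 to 0.25 in Ifitm10, from -0.11 to 0.14 in Ifi35 and from -0.45 to 0.20 in Siglech. The cause was not tested. Leaving out libraries for pathway and marker genes was chosen after seeing the data. The stricter GAS form TTCCNGGAA lay in 8.0% of member windows. Before the start alone, the ISRE core lay in 44.0% and the GAS in 21.3%.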
